A study of Mus musculus with 12 samples.

Results

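A set of 10 genes of interleukin 1 and tumour necrosis factor signalling was followed by symbol through 12 bulk RNA sequencing libraries, and all 10 were found among the 27571 genes present in both kinds of count file. They are the cytokine genes Il1b, Il1a, Il18 and Tnf, the receptor genes Il1r1 and Il1rap, the inflammasome genes Casp1 and Nlrp3, and the feedback genes Nfkbia and Tnfaip3. The libraries are labelled as monocytes, prepared with a magnetic monocyte isolation kit from the meninges, the membranes around the brain, of male C57BL/6J mice. Each of 4 groups had 3 libraries. The unstressed group had no restraint. The vehicle, psilocybin and MDMA groups all shared 18 days of chronic restraint stress, followed by the named agent, and tissue was taken 24 hours after it. The labels name no agent for the unstressed group, and its counts come from another kind of file. In vehicle, psilocybin or MDMA against unstressed the stress, the agent and the file kind therefore cannot be told apart. Comparisons of each drug with vehicle ask about the drug in stressed mice. Neither doses nor ages stand in the sources used here. Nothing in the labels says whether separate animals or pools gave the libraries, and the spread behind each p-value may therefore be technical in part.

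Interleukin 1 is made in successive steps. Toll-like receptors or TNF first switch on the transcription factor NF-kB, which induces the mRNA of the interleukin 1 precursors. An inflammasome, built on a sensor such as NLRP3, then activates caspase-1, which cleaves the precursors of interleukin 1 beta and interleukin 18. NF-kB also induces its own inhibitors, among them IkB-alpha (Nfkbia) and A20 (Tnfaip3). In monocytes and neutrophils Il1b is a known early transcript of activation, and brain endothelial cells are a known site of the interleukin 1 receptor.

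Library totals ran from 807725 counts in vehicle library 2 to 5136953 in MDMA library 3. Levels are given as CPM, counts scaled to a common library size with TMM factors (trimmed means of log ratios between libraries), and 3 counts, the upper limit that a count of 0 allows, correspond to 0.532 to 3.39 CPM in single libraries. No molecular identifiers are named in the labels, and these limits cover counting error only. Summed CPM of 6 general leukocyte markers ran from 128 to 741, while 7 choroid plexus epithelium markers summed to 14484 to 140247 CPM. Besides leukocyte RNA the libraries thus held much RNA of another tissue, and in bulk samples fewer cells of a type and less RNA per cell cannot be told apart. In vehicle library 1 the monocyte markers Ly6c2 and Cx3cr1 had 0 counts and Ccr2 had 1, against its label. Of 9 classical monocyte markers 2 (Ly6c2 and Plac8) were at 0 there, and the 9 summed to 186 CPM. Of 6 non-classical markers 5 were at 0. Cx3cr1 was also at 0 in unstressed library 1 and vehicle library 3. The markers thus bear out the label of vehicle library 1 only in part. The unstressed libraries were counted on a RefSeq annotation and the others on Ensembl identifiers, so for genes whose exons differ between the annotations the annotation and the group cannot be told apart. For Casp1, Nlrp3, Tnf, Nfkbia and Il1rap the exons were nearly the same, with a Jaccard index (shared over combined exon bases) of 0.973 to 0.995, and for the remaining members it ran from 0.464 for Il1a to 0.732 for Il1r1.

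The members were expressed at very different levels. Per kilobase of exon, Nfkbia was highest in all 4 groups, with group means of 68.6 CPM per kb in unstressed, 153 in vehicle, 211 in psilocybin and 240 in MDMA libraries. Il1a was at the bottom, with 0.099, 0, 0.394 and 1.29 CPM per kb in the same order, level with Casp1, Nlrp3 and Tnf at 0 in vehicle libraries. Only 4 members, Il1b, Il1r1, Nfkbia and Tnfaip3, reached 3 counts in every library. Of the 10 members, 8 passed a minimum of counts and entered the edgeR tests over 13943 genes. Il1a and Tnf did not pass and are described by their counts.

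**Figure D1:**
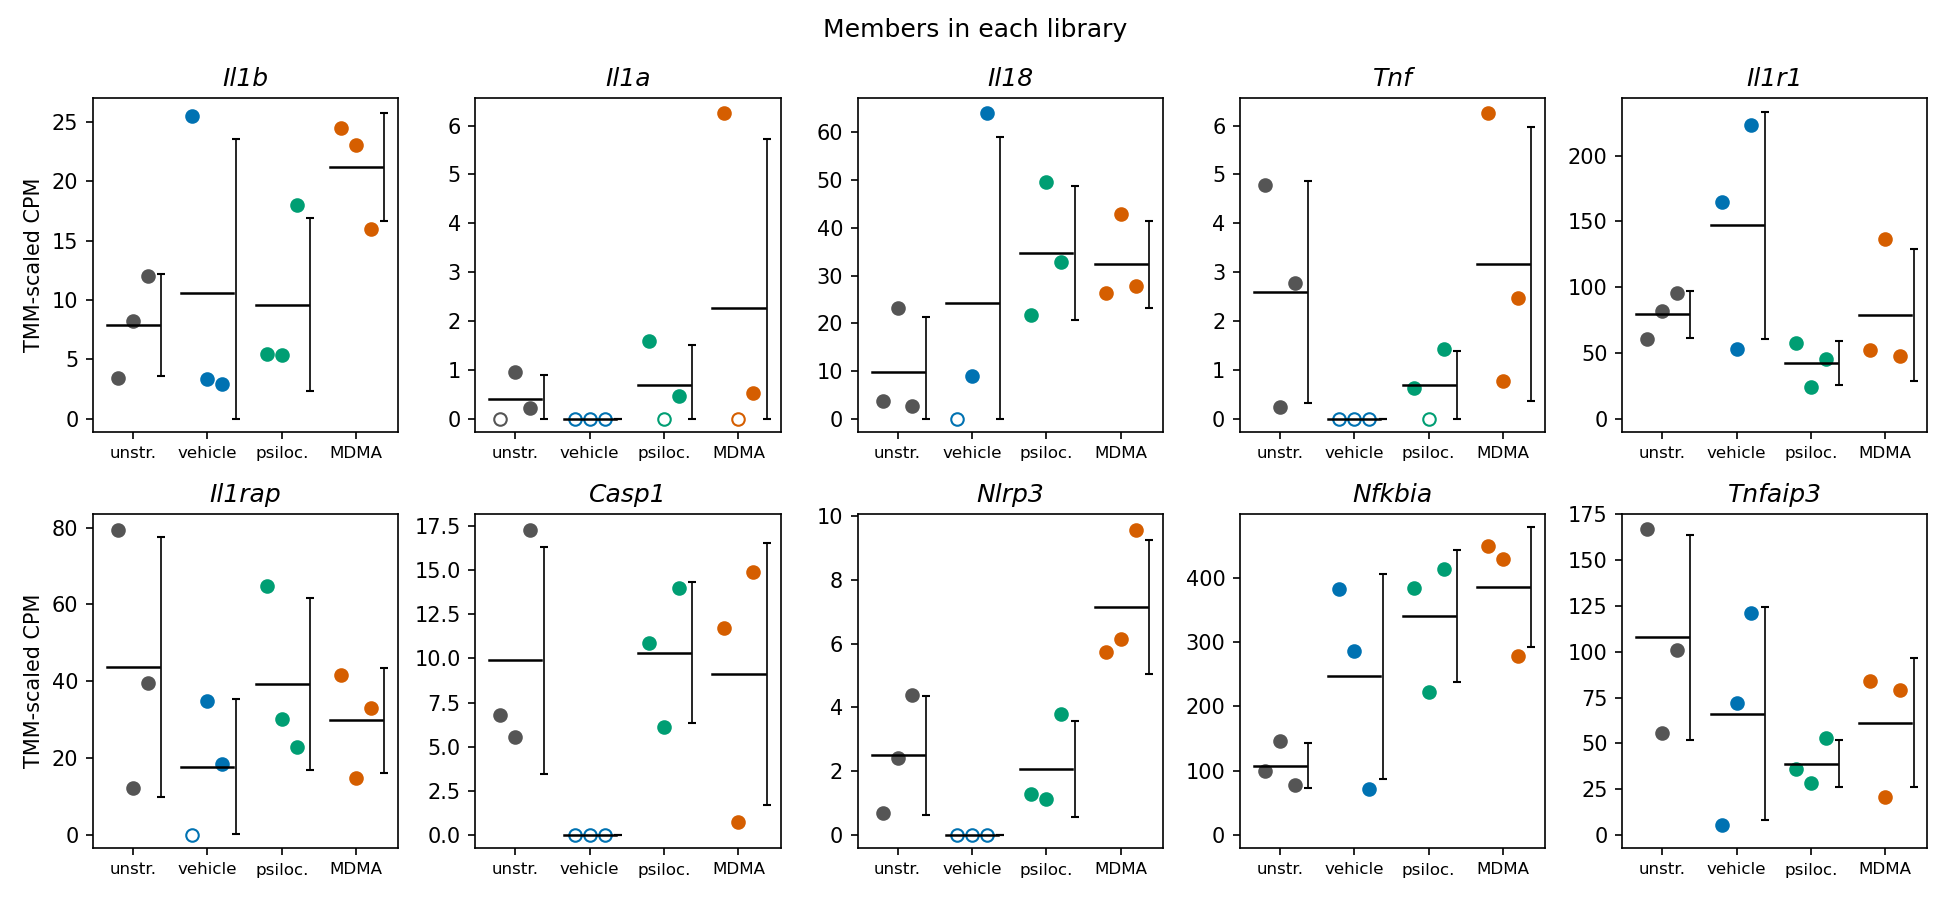
CPM of each member in the 12 libraries (linear axis from 0 in each panel), by group. Points are libraries, open circles are libraries with 0 counts, lines are group means and bars are SD with the lower end stopped at 0. The panels of Casp1, Nlrp3, Tnf and Il1a show open circles in all 3 vehicle libraries.

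What set the vehicle libraries apart for these genes was the lack of reads for 4 members. Casp1, Nlrp3, Tnf and Il1a had 0 counts in all 3 libraries. Of 30 member values in vehicle libraries, 14 were 0 (46.7%), against 4 of 90 (4.44%) in the other groups. Zero values were common there for other genes too: over all genes tested, 24.8% of vehicle values and 1.82% of values of the other groups were 0. Among the 8 tested members these shares were 33.3% and 0%. All 3 vehicle libraries were at 0 for 5.84% of the genes tested, and for 14.1% of the 5558 tested genes with a mean of 1 to 20 CPM in the other 9 libraries, the range in which Casp1 (9.78 CPM) and Nlrp3 (3.9 CPM) lay. Vehicle library 1 detected 4 of the 10 members and vehicle libraries 2 and 3 detected 6 each, while each library of the other groups detected 8 to 10. These numbers did not always follow depth: vehicle library 1 held 3623830 counts and psilocybin library 2, with 8 members detected, held fewer.

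**Figure D2:**
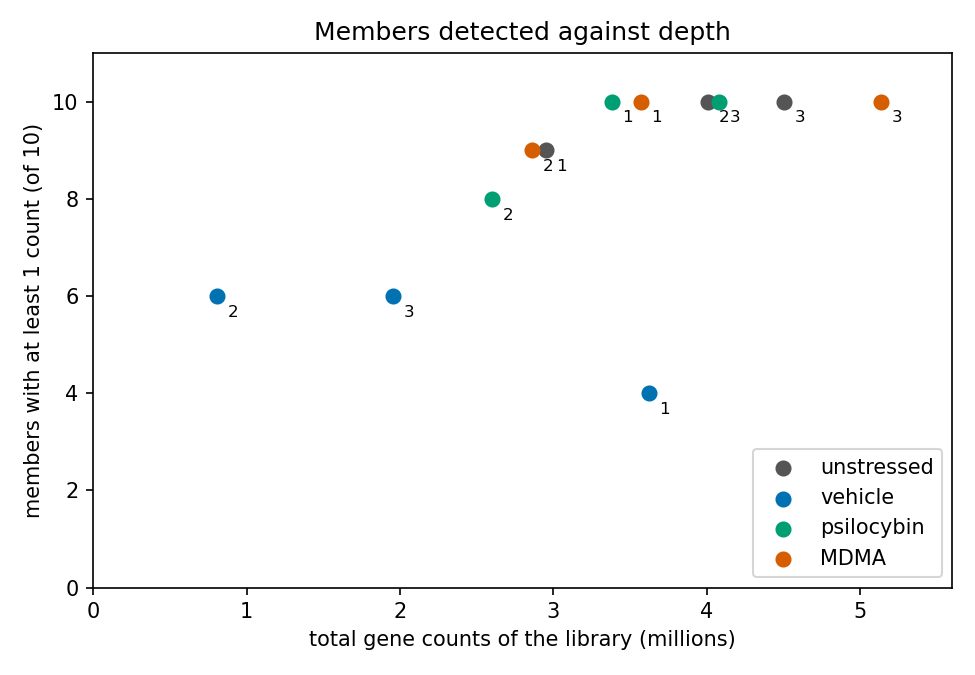
Number of the 10 members with at least 1 count against the library total, with a point for each library coloured by group, with the replicate number beside it. The 3 vehicle libraries sit at 4, 6 and 6 members, below all 9 others at 8 to 10.

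Among the cytokines, Il1b, which encodes the precursor of interleukin 1 beta (chr2:129364570-129371139, minus strand, GRCm38), was detected in every library and passed no test. Its counts were 10, 34 and 52 in unstressed libraries 1, 2 and 3, then 83, 3 and 4 in vehicle, 17, 14 and 76 in psilocybin and 94, 60 and 90 in MDMA libraries. As CPM, the unstressed libraries stood at 3.41, 8.20 and 12, the vehicle libraries at 25.5, 3.39 and 2.94, the psilocybin libraries at 5.43, 5.34 and 18.0 and the MDMA libraries at 24.5, 23.0 and 16. The MDMA libraries lay together above all unstressed libraries, whereas the vehicle group was split between its highest library, number 1, and 2 libraries with 3 and 4 counts. Mean levels were 7.88 ± 4.31 CPM (SD, n = 3) in unstressed, 10.6 ± 12.9 in vehicle, 9.59 ± 7.29 in psilocybin and 21.1 ± 4.55 in MDMA libraries. The log2 fold change was 0.95 ± 1.04 (SE) for MDMA against vehicle (edgeR adjusted p = 0.721; 2.74 without vehicle library 1) and 1.41 ± 1.05 for MDMA against unstressed (edgeR adjusted p = 0.999). For vehicle against unstressed it was 0.46 ± 1.04, and -1.32 without vehicle library 1, so that library decides the direction.

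Neutrophil transcripts went with Il1b in some libraries only. The 11 neutrophil markers summed to 31.4 to 53.6 CPM in unstressed, 134 to 169 in vehicle, 105 to 940 in psilocybin and 587 to 2288 in MDMA libraries, and in the vehicle group Cxcr2, Retnlg, Ly6g and Mmp8 had 0 counts in all 3 libraries. Ly6g was low elsewhere too, with 2, 0 and 3 counts in MDMA, 1, 0 and 0 in psilocybin and 0, 3 and 0 in unstressed libraries. Cxcr2 was also at 0 in MDMA library 2, and 4 markers were at 0 in unstressed library 1 and 2 in unstressed library 3. No marker was at 0 in unstressed library 2, psilocybin library 1 or MDMA libraries 1 and 3. The psilocybin library with the highest sum, number 3 at 940 CPM, also had the highest Il1b of its group, as did MDMA library 1 (2288 CPM). In the unstressed group the highest Il1b (12 CPM, library 3) stood beside the lowest sum (31.4 CPM). The vehicle library with the highest sum, number 2 at 169 CPM, had 3 counts of Il1b. Vehicle library 1 had the highest Il1b of all with a sum of 134 CPM. Classical monocyte markers, 9 in number, summed to 537 to 643 CPM in unstressed, 186 to 966 in vehicle, 264 to 650 in psilocybin and 669 to 1383 in MDMA libraries. The part of either cell type in the Il1b levels was not tested.

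**Figure D3:**
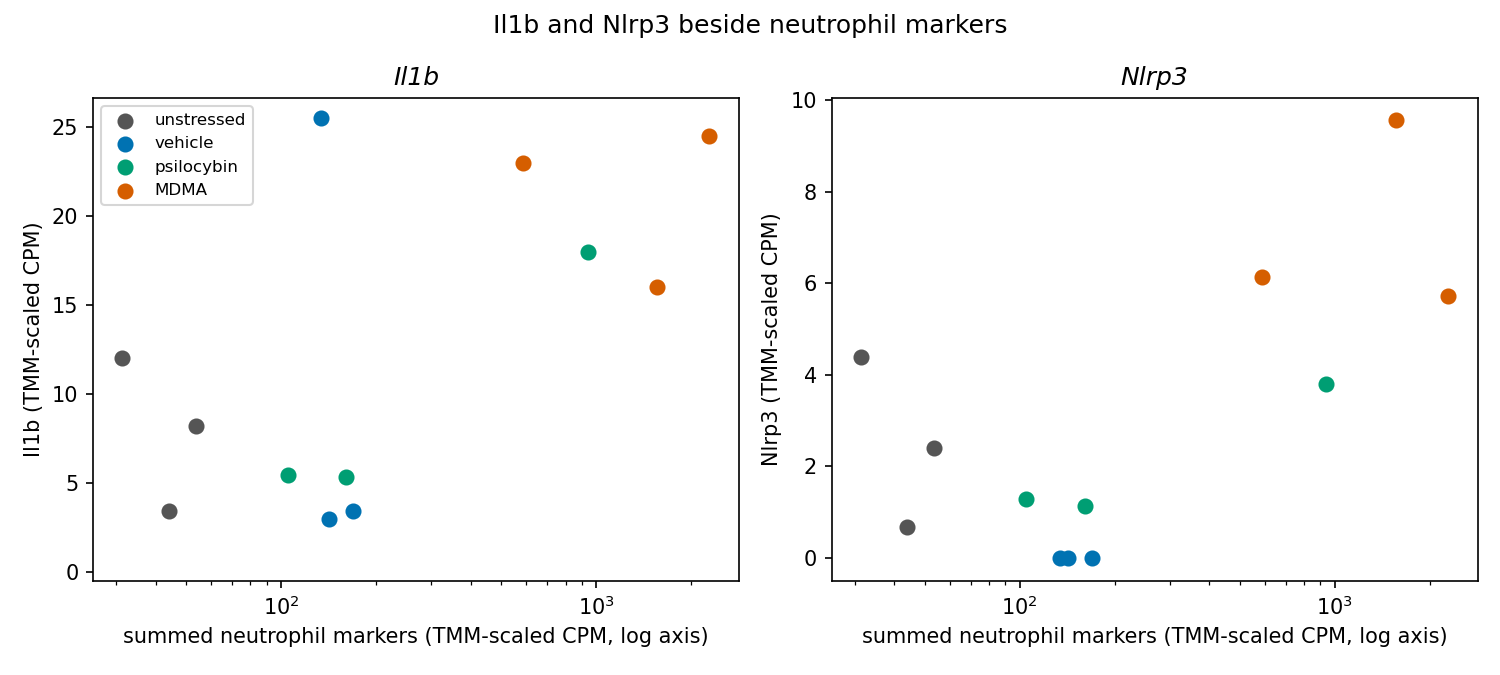
CPM of Il1b (left, linear axis) and Nlrp3 (right) against the summed CPM of 11 neutrophil markers (log axis) in the 12 libraries, coloured by group. MDMA libraries lie at 587 CPM and above on the marker axis, and vehicle library 1 has the highest Il1b with a marker sum of 134 CPM.

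Il18, the precursor of the second caspase-1 substrate (chr9:50554827-50581840, plus strand), had 11, 96 and 12 counts in unstressed, 0, 8 and 87 in vehicle, 68, 130 and 139 in psilocybin and 101, 112 and 157 in MDMA libraries. These are 3.75, 23.2 and 2.77 CPM, then 0, 9.03 and 64.0, then 21.7, 49.6 and 32.9, and 26.3, 42.9 and 27.8 CPM. The vehicle libraries spanned both the lowest and the highest value of the series, so their mean of 24.3 ± 34.6 CPM (SD, n = 3) describes none of them. All MDMA libraries lay above all unstressed libraries, with a log2 difference of 1.70 ± 1.37 (SE; edgeR adjusted p = 0.999), and the exon models of Il18 differed between those groups, with 1534 own bases in the RefSeq and 1031 in the Ensembl annotation.

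Tnf and Il1a had the fewest reads of the set, with 24 counts at most in a library. Tnf, the gene of tumour necrosis factor (chr17:35199381-35202007, minus strand), had 14, 1 and 12 counts in unstressed, 0, 0 and 0 in vehicle, 2, 0 and 6 in psilocybin and 24, 2 and 14 in MDMA libraries. Pooled over each group, 27 unstressed and 40 MDMA counts stood against 0 in vehicle. From a floor of 3 counts over the group, pooled Tnf was at least 4.35-fold higher in unstressed and at least 6.07-fold higher in MDMA than in vehicle libraries. For psilocybin, with 8 counts, the bound was 1.47-fold. Such bounds, here and for the genes below, cover counting error of the pool and no spread between libraries. Tnf in unstressed library 2 (0.241 CPM) and MDMA library 2 (0.766 CPM) lay under the limit of each vehicle library. Il1a, whose product interleukin 1 alpha is active without caspase-1 (chr2:129299610-129309972, minus strand), had 0, 4 and 1 counts in unstressed, 0 in each vehicle library, 5, 0 and 2 in psilocybin and 24, 0 and 3 in MDMA libraries. Of its 27 MDMA counts, 24 came from library 1, which also had the highest neutrophil sum (2288 CPM). Neither gene was tested, and the 0 counts in vehicle libraries 1, 2 and 3 allow levels of up to 0.92, 3.39 and 2.21 CPM.

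The receptor genes did not share a pattern. Il1r1, the signalling receptor (chr1:40225080-40317257, plus strand), stood at 60.4, 82.3 and 95.7 CPM in unstressed, 165, 53.1 and 223 in vehicle, 57.5, 24.4 and 45.7 in psilocybin and 52.1, 137 and 48.0 in MDMA libraries. Vehicle libraries 1 and 3 were the highest of the series and vehicle library 2 was within the range of the psilocybin group. Psilocybin against vehicle gave a log2 fold change of -1.79 ± 0.67 (SE; edgeR adjusted p = 0.2), which moved to -0.29 without vehicle libraries 1 and 3. Here every psilocybin library was below every unstressed library, with a log2 fold change of -0.90 ± 0.65 (edgeR adjusted p = 0.967). Il1rap, the accessory chain that the receptor needs to signal (chr16:26581704-26730117, plus strand), stood at 79.5, 12.3 and 39.5 CPM in unstressed, 0, 35 and 18.4 in vehicle, 64.8, 30.1 and 23.0 in psilocybin and 41.7, 14.9 and 33.1 in MDMA libraries. Vehicle library 1 thus had 538 counts of Il1r1 and none of Il1rap, although the accessory chain had at least 25 counts in every other library. No comparison of Il1rap passed, and its 4 groups overlapped one another. Across the 12 libraries, which share depth and annotation differences, the pair had a Pearson correlation of -0.54 on log2 CPM, given as a description.

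Casp1 was the only member past the threshold of an adjusted p under 0.05, and in 1 comparison. The gene of caspase-1 (chr9:5298517-5307265, plus strand) had 20, 23 and 75 counts in unstressed, 0 in each vehicle, 34, 16 and 59 in psilocybin and 45, 2 and 84 in MDMA libraries. As CPM the detected values were 6.82, 5.55 and 17.3 in unstressed, 10.9, 6.11 and 14 in psilocybin and 11.7, 0.77 and 14.9 in MDMA libraries. The vehicle values of 0 lay below all of them, while the other 3 groups covered one another. Counts of 0 allow up to 0.92, 3.39 and 2.21 CPM in vehicle libraries 1, 2 and 3, so MDMA library 2 is not resolved from vehicle. Casp1 was lower in vehicle than in unstressed libraries (edgeR adjusted p = 0.0482), by a factor of at least 19 over pooled counts. Pooled over the group, 118 counts were found in unstressed, 109 in psilocybin and 131 in MDMA libraries. Psilocybin and MDMA libraries were at least 20.1-fold and 19.9-fold above vehicle, with edgeR adjusted p = 0.0941 and 0.0751. Over 13 alternative settings the adjusted p of the vehicle and unstressed comparison ran from 0.00203 (DESeq2) to 0.269, and the call was kept in 3 of them. It was kept without vehicle library 2, the shallowest (edgeR adjusted p = 0.0165), and lost without any other single library of the 2 groups and without vehicle libraries 1 and 3 together (edgeR adjusted p = 0.197). MDMA library 2 had only 2 counts.

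Nlrp3, the sensor that assembles the inflammasome (chr11:59541568-59566956, plus strand), had 2, 10 and 19 counts in unstressed, 0 in each vehicle, 4, 3 and 16 in psilocybin and 22, 16 and 54 in MDMA libraries. MDMA libraries, at 5.73, 6.13 and 9.57 CPM, lay above all 9 others, which reached 4.39 CPM at most. Against vehicle, Nlrp3 was at least 14-fold higher in MDMA libraries (edgeR adjusted p = 0.0673), at least 4.23-fold higher in psilocybin (edgeR adjusted p = 0.141) and at least 4.99-fold higher in unstressed libraries (edgeR adjusted p = 0.0833). Between the drugs the log2 difference of psilocybin from MDMA was -1.75 ± 1.04 (SE; edgeR adjusted p = 1). In vehicle library 2 alone a count of 0 allows up to 3.39 CPM, above the unstressed mean of 2.5 ± 1.86 CPM (SD, n = 3). The limits of vehicle libraries 1 and 3 are 0.92 and 2.21 CPM. Nlrp3 in unstressed library 1 (0.682 CPM) lay under all of these limits. Psilocybin libraries 1 and 2 (1.28 and 1.14 CPM) lay under those of vehicle libraries 2 and 3, and unstressed library 2 (2.41 CPM) under that of vehicle library 2. These libraries are thus not resolved from all vehicle libraries.

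Nfkbia and Tnfaip3 encode inhibitors that NF-kB is known to induce, and they differed in pattern. Their promoters are printed because both genes are textbook targets and because windows of both held a match to the NF-kB motif GGGNNNTTCC, searched on both strands. The windows are 300 bases, from 250 before to 50 after the start, from RefSeq for GRCm38.p6. Such a match was in 1825 of 32851 windows (5.56%), and in 4 of the 13 windows of the 10 members. The matching windows not printed were of Il1r1 (chr1:40266336-40266635, at -232) and of another start of Tnfaip3 (chr10:19011914-19012213, at -90). A match is a description and no evidence of binding. Capitals mark the matches, which read on the reverse strand of the motif, at base -29 of Nfkbia (chr12:55492598-55492897, minus strand) and at -12 and 34 of Tnfaip3 (chr10:19015361-19015660, minus strand), counted from the start.
Nfkbia: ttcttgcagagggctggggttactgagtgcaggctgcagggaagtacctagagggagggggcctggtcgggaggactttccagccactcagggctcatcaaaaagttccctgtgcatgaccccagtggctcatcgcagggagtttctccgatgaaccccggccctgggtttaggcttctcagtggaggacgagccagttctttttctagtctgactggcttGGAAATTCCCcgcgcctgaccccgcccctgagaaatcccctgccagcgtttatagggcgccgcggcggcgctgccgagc
Tnfaip3: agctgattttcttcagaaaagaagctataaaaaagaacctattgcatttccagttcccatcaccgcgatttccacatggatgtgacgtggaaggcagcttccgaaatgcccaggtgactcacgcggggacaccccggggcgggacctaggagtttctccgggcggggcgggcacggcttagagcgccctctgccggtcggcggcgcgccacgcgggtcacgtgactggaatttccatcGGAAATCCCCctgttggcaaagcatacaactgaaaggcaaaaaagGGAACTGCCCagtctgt

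Nfkbia, IkB-alpha (gene at chr12:55489410-55492647), stood at 100, 146 and 78.3 CPM in unstressed, 383, 286 and 71.3 in vehicle, 384, 223 and 414 in psilocybin and 449, 429 and 279 in MDMA libraries. All libraries of both drug groups lay above all unstressed libraries, and vehicle library 3 was the lowest of the series. Summed choroid plexus markers were 140247, 57780 and 16816 CPM in vehicle libraries 1, 2 and 3, in the same order as Nfkbia. The order was also the same in MDMA libraries (40677, 32502 and 20140 CPM). It was not the same in unstressed (39211, 14484 and 38512 CPM) or psilocybin libraries (125477, 63004 and 64289 CPM). These sums ran from 63004 to 125477 CPM in psilocybin and from 14484 to 39211 in unstressed libraries, without overlap, and from 20140 to 40677 in MDMA libraries, which overlapped unstressed. Their part in the levels of Nfkbia, and in those of Il1r1 and Tnfaip3, which were lower in psilocybin than in unstressed libraries, was not tested. Means of Nfkbia were 108 ± 34.6 CPM in unstressed, 247 ± 160 in vehicle, 340 ± 103 in psilocybin and 386 ± 93 in MDMA libraries (SD, n = 3). Against unstressed the log2 fold change was 1.65 ± 0.56 (SE) for psilocybin (edgeR adjusted p = 0.476) and 1.83 ± 0.56 for MDMA (edgeR adjusted p = 0.354). These comparisons share the unstressed samples, and in them the stress, the agent and the file kind cannot be told apart. With only the 2 groups compared in the fit, the adjusted p of edgeR was 0.0251 and 0.0372, so these calls depend on which libraries set the spread. Against vehicle the log2 fold changes were 0.46 ± 0.55 and 0.64 ± 0.55. For vehicle against unstressed it was 1.19 ± 0.56 (edgeR adjusted p = 0.269), and 1.65 without vehicle library 3, where it passed (edgeR adjusted p = 0.031).

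Tnfaip3, the ubiquitin-editing enzyme A20 (chr10:19000910-19015657, minus strand), stood at 167, 55.7 and 101 CPM in unstressed, 5.52, 72.2 and 121 in vehicle, 35.8, 28.2 and 53.1 in psilocybin and 84.1, 20.7 and 78.9 in MDMA libraries. All psilocybin libraries were below all unstressed libraries, with a log2 fold change of -1.46 ± 0.89 (SE; edgeR adjusted p = 0.944). The annotations differed here, with 4809 own exonic bases in the RefSeq and 7226 in the Ensembl models. Vehicle library 1 had 18 counts of Tnfaip3 beside 1250 of Nfkbia, and vehicle library 3 had 165 beside 97. Over the 12 libraries the Pearson correlation of the pair on log2 CPM was -0.59, given as a description of libraries that share depth and cell content.

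Counted over the 8 tested members, few passed. In vehicle against unstressed 1 member, Casp1, was lower and none higher, where edgeR called 3.41% of all tested genes and 3.19% as lower. In psilocybin against vehicle no member passed, with 0.0143% of genes called, and in MDMA against vehicle none, with 0.674%. For psilocybin against MDMA, where 0% of genes were called, no member passed. No member passed against unstressed for psilocybin (0.0861% of genes) or MDMA (0.122%), nor in the test of any difference among the 4 groups (0.581%). In those 7 comparisons, in the same order, 3, 3, 2, 0, 1, 1 and 3 members had an unadjusted p under 0.05, where 18.5%, 16%, 16.7%, 0.581%, 6.33%, 4.97% and 14.3% of all tested genes did. DESeq2, run as another tool, called 2 members for psilocybin against vehicle (Casp1 and Il1r1), and Casp1 and Nlrp3 both for MDMA against vehicle and for any difference. It called Casp1 alone for vehicle against unstressed and 0 members in the 3 other comparisons. DESeq2 also called far more of the 13943 genes than edgeR did. It called 1748 in vehicle against unstressed, 1061 in psilocybin against vehicle, 1336 in MDMA against vehicle and 1424 for any difference. The median log2 fold change of the tested members was -0.12 in vehicle against unstressed, beside -0.18 over all genes, 0.49 beside 0.31 for psilocybin and 0.71 beside 0.24 for MDMA against vehicle.

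Libraries of compared groups separated completely for some members. Casp1 and Nlrp3 had all vehicle libraries below all unstressed ones (2 of 8 members, 17.2% of genes), and all drug libraries above all vehicle ones (21.1% of genes for psilocybin and 16.5% for MDMA). Nlrp3 was the only tested member with all psilocybin libraries below all MDMA libraries, where 6.28% of genes were. Above unstressed lay Nfkbia in the psilocybin group (19.0% of genes) and Il1b, Il18, Nlrp3 and Nfkbia in the MDMA group (4 of 8 members, 10.9% of genes). Below unstressed lay Il1r1 and Tnfaip3 in the psilocybin group (18.0% of genes).

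**Figure D4:**
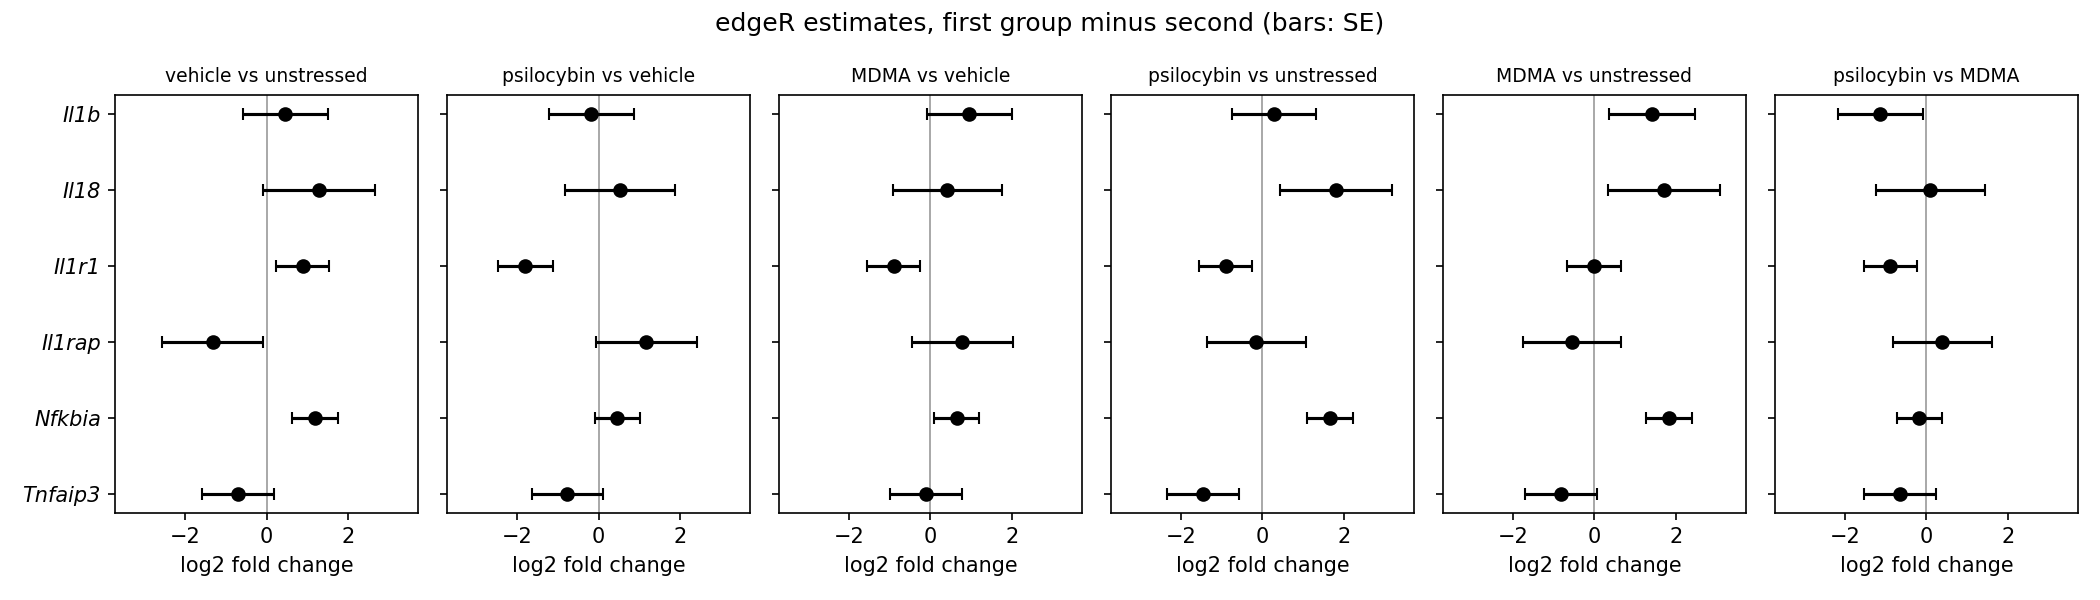
Log2 fold changes of the 6 members with counts in every group, with bars of 1 SE, for the comparisons between groups. Casp1 and Nlrp3 are left out because their vehicle libraries are all at 0, and none of the points shown passed an adjusted p of 0.05.

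Other genes of the pathway were followed in 6 lists of 79 genes, of which 78 were in both annotations and 71 were tested. In vehicle against unstressed 2 were lower and none higher, in MDMA against vehicle 1 was higher, and in the other comparisons none passed. These are 2.82% and 1.41% of the list genes, beside 3.41% and 0.674% of all genes. Unadjusted p under 0.05 were found for 7, 13, 11, 0, 2 and 4 of the 71 in the pairwise comparisons, in the order above, and for 7 in the test of any difference, which are 9.86%, 18.3%, 15.5%, 0%, 2.82%, 5.63% and 9.86% and can be read against the shares of all genes given above for the members. Il18bp, the secreted decoy that binds interleukin 18, had 50, 29 and 97 counts in unstressed, 0 in each vehicle, 39, 25 and 60 in psilocybin and 59, 72 and 62 in MDMA libraries. Over pooled counts it was at least 28.3-fold lower in vehicle than in unstressed libraries (edgeR adjusted p = 0.0305). It was at least 29.3-fold higher in MDMA than in vehicle libraries (edgeR adjusted p = 0.0482). For psilocybin the bound was 22.8-fold (edgeR adjusted p = 0.0687). Zc3h12a, an RNase that degrades inflammatory mRNAs, had 164 counts in unstressed and 2 in vehicle libraries, a ratio of 39.6 with an exact 95% counting interval of 10.8 to 330 (edgeR adjusted p = 0.049). Without vehicle libraries 1 and 3 neither gene passed against unstressed (edgeR adjusted p = 0.0676 for Il18bp and 0.19 for Zc3h12a), while Ripk1 and Traf6, named after their values were seen, passed as lower there. The call of Il18bp in MDMA against vehicle held in 4 of 13 alternatives, with adjusted p up to 0.533, and was lost without vehicle libraries 1 and 3 (edgeR adjusted p = 0.114). The number of list genes called in vehicle against unstressed, psilocybin against vehicle and MDMA against vehicle was 2, 0 and 0 without vehicle library 1, 16, 18 and 19 without vehicle library 2, and 6, 3 and 4 without vehicle library 3. It was 0 without any single unstressed, psilocybin or MDMA library and 0 in all 3 with the replicate block or with only the groups compared. The DESeq2 test called 5, 7 and 7 of 69 list genes in these 3 comparisons and 6 for any difference. Over all 13943 genes it called 1748, 1061 and 1336, and 1424 for any difference. Each fit without 1 vehicle library tested 72 list genes. Over all genes those fits called 268, 0 and 3 of 14379 without vehicle library 1. Without vehicle library 2 they called 3674, 3539 and 3613 of 14426, and without vehicle library 3 they called 987, 140 and 280 of 14489.

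The list of interleukin 1 family ligands and receptors had 7 of 10 genes tested, and Il18bp was its member past the threshold. In the inflammasome list, 11 of 14 were tested and none passed. Nek7, a kinase that NLRP3 needs, had means of 646 ± 59.5 CPM in unstressed, 456 ± 32.3 in vehicle, 249 ± 16.8 in psilocybin and 278 ± 22.9 in MDMA libraries (SD, n = 3), with own exonic bases of 4304 in the RefSeq and 7258 in the Ensembl annotation. Its test of any difference gave edgeR adjusted p = 0.13. Naip2, of a family of near-identical copies whose reads cannot be split with certainty, had 77 unstressed and 0 vehicle counts. In the TNF list (12 of 13 tested), Ltb and Tnfaip8, the genes of smallest p, had vehicle means of 52.5 ± 38.5 and 151 ± 123 CPM and did not pass. Among NF-kB subunits, kinases and feedback genes all 18 were tested and Zc3h12a passed. Of the toll-like receptor and MyD88 genes (12 of 12 tested), Traf6, a ubiquitin ligase of that pathway, stood at 33.3 ± 10.1 CPM in unstressed, 3.61 ± 3.28 in vehicle, 30.4 ± 4.21 in psilocybin and 38 ± 2.22 in MDMA libraries, with edgeR adjusted p = 0.0604 for vehicle against unstressed. Map3k7, the kinase TAK1, had 323 CPM in 1 vehicle library and 30.5 and 32.5 in the others. Among inflammatory targets (11 of 12 tested), the chemokine gene Ccl4 had 27, 1, 99 and 165 pooled counts in unstressed, vehicle, psilocybin and MDMA libraries (edgeR adjusted p = 0.0868 for MDMA against vehicle). Cxcl2, a chemokine that attracts neutrophils, stood at 26.7 ± 19.1 CPM in MDMA and 3.28 ± 1.13 in unstressed libraries (edgeR adjusted p = 0.999). Its own exonic bases were 1083 in the RefSeq and 2068 in the Ensembl annotation. In the other groups it stood at 4.89 ± 8.47 CPM in vehicle and 7.01 ± 2.66 in psilocybin libraries (edgeR adjusted p = 0.431 for MDMA against vehicle).

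The genes whose levels ran most like those of 4 members were listed over the 12 libraries by the Pearson correlation of log2 CPM, among 11670 genes with a mean of at least 5 CPM. For Il1b they were Rad51ap1 (0.91), Mgl2 (0.89) and Fam217b (0.87), for Il1r1 Prkrir (0.94), Kmt2e (0.94) and Spred1 (0.92), for Nfkbia Id1, Id3 and Rpl3 (each 0.96) and for Tnfaip3 Itgal (0.96), Stard8 (0.94) and Tbx3 (0.93). The libraries share depth and annotation differences, and these values describe likeness only.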

How the data were processed

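RNA sequencing was analysed from 12 libraries in 4 groups of 3, grouped and numbered by the sample titles. The authors deposited raw gene counts, which are whole numbers. The submitters' processing notes name STAR 2.7.5c, featureCounts 2.0.1, fastp 0.23.2, FastQC 0.11.9, MultiQC 1.11, edgeR 3.42.4 and the mm10 build, without order or settings. Per the file headers, unstressed libraries were counted with featureCounts on RefSeq genes with no strand or paired-end option; for the others the sources used here name no annotation release. RNA input was 5 ng, per the labels' protocols. A table of the series held 3 columns of no sample used here.

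Annotations were joined through GENCODE vM21 (GRCm38) by symbol and locus or, by position, as mutual best exon matches (Jaccard index 0.5 or more), keeping 27571 genes with 94.8% to 99.09% of each library's counts. Counts were scaled with TMM, filtered with filterByExpr and tested with edgeR 4.0.16 quasi-likelihood in R 4.3.3 over all 12 libraries, adjusted with Benjamini-Hochberg over the 13943 genes tested at 0.05. Standard errors come from the test statistic. DESeq2 1.42.0 was an alternative. Others were its size factors, no filter, a replicate block, only the groups compared, other annotations and leaving out libraries. The scripts were tested on simulated data.

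Same-numbered libraries of vehicle and psilocybin deviated together (correlations across genes of 0.112, 0.213 and 0.115), which meets the limit of 0.1 set for taking the numbers as pairs; the labels do not state pairing. All printed tests are without the block unless it is named, and the blocked fit changed no call of a member in that comparison. No other pair of groups had all correlations over 0.1. The members and lists were chosen with earlier results of these data known. Named genes are the 10 members, list genes past the threshold, and otherwise the list's 2 genes of smallest p in the test over the 4 groups.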

Additional observations from a re-analysis of the deposited data

How the results depend on the processing

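Of 96 recomputed member counts, 78 were the same as reported and 18 moved. These compare the numbers of members and not their names, and most of the same counts were 0. Without vehicle library 3 the count in vehicle against unstressed stayed at 1, but Nfkbia passed in place of Casp1 (edgeR adjusted p = 0.0503 for Casp1). In vehicle against unstressed, where Casp1 passed, 0 members passed with DESeq2 size factors in edgeR, 0 without a filter on low counts, 0 with only the 2 groups compared and 0 without vehicle libraries 1 and 3, an alternative chosen after seeing the data in which library 2 is assumed to vary like the other groups. With the replicate number as a block 0 members passed there (edgeR adjusted p = 0.099 for Casp1), and the block changed no other member call; it took all genes called from 476 to 10. Leaving out each library in turn gave 0 to 2 members in that comparison, 0 to 3 in psilocybin against vehicle and 0 to 2 in MDMA against vehicle, the highest numbers each time without vehicle library 2 (Casp1 and Nlrp3, joined by Il1r1 for psilocybin). The DESeq2 test called 2 members in psilocybin against vehicle, 2 in MDMA against vehicle and 2 for any difference. With only the 2 groups compared, 1 member (Nfkbia) passed in psilocybin against unstressed and 1 in MDMA against unstressed, and without vehicle libraries 1 and 3, 1 (Nfkbia) passed for any difference. The cause was not tested.

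No reversed fold change was of a called gene. Without vehicle libraries 1 and 3 the log2 fold change of vehicle against unstressed was -1.21 for Il1b, -0.14 for Il18 and -0.58 for Il1r1, that of psilocybin against vehicle was 1.53 for Il1b, and those of MDMA against vehicle were 0.59 for Il1r1 and -0.18 for Il1rap. Leaving out single libraries, vehicle against unstressed ran from -1.32 to 0.93 for Il1b and from -1.36 to 2.93 for Il18. Psilocybin against vehicle ran from -0.99 to 1.62 for Il1b, from -0.07 to 3.19 for Il18 and from -1.30 to 0.06 for Tnfaip3, and MDMA against vehicle from -0.18 to 3.09 for Il18 and from -0.65 to 0.73 for Tnfaip3. With DESeq2 size factors the median log2 fold change of all genes in vehicle against unstressed went from -0.18 to 0.00, in psilocybin against vehicle from 0.31 to 0.12 and in MDMA against vehicle from 0.24 to 0.10.

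Counts over all genes moved more. For vehicle against unstressed, 476 by edgeR became 298 with DESeq2 size factors, 291 without the filter, 1748 with DESeq2, 2 with only the 2 groups and 8 to 3674 when single libraries were left out. In psilocybin against vehicle, 2 became 1061 with DESeq2 and up to 3539, and in MDMA against vehicle 94 became 1336 and up to 3613, both highest without vehicle library 2. Both became 0 with the block, with only the 2 groups and in the 9 stressed libraries alone, and with DESeq2 size factors they became 0 and 3. Without the filter, psilocybin against vehicle had 7. Against unstressed, 12 for psilocybin became 51 without the filter, 245 with DESeq2, 5 with the block, 1377 with only the 2 groups and 3 to 5 without single libraries, and 17 for MDMA became 65, 218, 5, 235 and 2 to 4. For any difference 81 became 276, 1424 and 16 under the first 3 of these and 11 to 2482 without single libraries. Among the 2801 genes with nearly the same exons, 138, 2, 27, 0, 2, 4 and 23 were called over the 7 comparisons in the order of the report. Depth limits what the 0 counts of Casp1, Nlrp3, Tnf and Il1a show: in vehicle library 2 each allows up to 3.39 CPM.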
